A study of Mus musculus with 9 samples.

Results

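The cytochrome P450 enzymes of families 1, 2 and 3 were described at the transcript level in the livers of hyperlipidemic mice with and without the cytokine MIF-2. Members were all protein-coding mouse genes named Cyp1, Cyp2 or Cyp3 followed by a subfamily letter and a number, without the Cyp2b genes, that had at least 1 count in at least 3 of 9 libraries. By this rule 49 of the 27179 genes in the table were members. They comprised 15 Cyp2c, 8 Cyp2d, 7 Cyp3a, 6 Cyp2j, 4 Cyp2a and 2 Cyp1a genes, and 1 gene each of Cyp1b, Cyp2e, Cyp2f, Cyp2g, Cyp2r, Cyp2s and Cyp2u. A further 3 protein-coding genes of the same naming pattern, Cyp2j13, Cyp2t4 and Cyp2w1, had counts in fewer than 3 libraries and were not members.

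Drug-metabolizing P450 enzymes sit in the endoplasmic reticulum of hepatocytes, where they insert 1 atom of oxygen into drugs, steroids, fatty acids and other lipophilic substrates, with electrons from P450 oxidoreductase (Por) and a heme group at the active site. Their transcription is governed by ligand-sensing nuclear receptors (PXR, encoded by Nr1i2, and CAR, encoded by Nr1i3), by the aryl hydrocarbon receptor (Ahr), by hepatocyte factors and, for many mouse genes, by the sex-dependent rhythm of growth hormone. Most are made mainly by pericentral hepatocytes, near the central vein of the lobule, whereas Cyp2f2 is a periportal gene.

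The study compared female Apoe-/- mice with female Mif-2-/-Apoe-/- mice on a C57BL/6 background, which lack MIF-2 in all tissues (gene Ddt). Both genotypes lacked Apoe, and both received a Western-type high-fat diet (HFD) with cholesterol from 8 weeks of age for 12 weeks, so no library stands for a normolipidemic liver. Each library was made by the Smart-seq2 protocol from the pooled lysates of 3 to 4 frozen liver sections, and there were 5 Apoe-/- and 4 Mif-2-/-Apoe-/- libraries. The labels do not tie libraries to single animals. The study names 4 liver sections per group and, for its heatmap of these data, 4 mice per group, against the 5 Apoe-/- libraries used here. All p-values therefore measure the spread between libraries, which may in part be technical.

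Library totals ranged from 2318148 to 10764182 counts. The deleted gene Ddt was at 658 ± 283 CPM (read counts scaled to a common TMM library size; SD, n = 5 libraries) in Apoe-/- livers, against 4.18 ± 1.45 CPM in the 4 Mif-2-/-Apoe-/- libraries, as labelled. The 10 most abundant genes took between 12.5% and 26.3% of the counts. The summed level of 15 hepatocyte markers was between 252767 and 340083 CPM in Apoe-/- replicates 1 to 4 but 114581 CPM in replicate 5. It was between 96512 and 148421 CPM in Mif-2-/-Apoe-/- replicates 1, 3 and 4 but 287552 CPM in replicate 2. Thus Apoe-/- replicate 5 and Mif-2-/-Apoe-/- replicate 2 each lay within the range of the opposite genotype in these markers. Of the 15 hepatocyte markers, none was at 0 in all libraries of a genotype, and the same held for the 12 pericentral, 12 periportal, 12 Kupffer cell, 9 sinusoidal endothelial, 7 cholangiocyte and 10 lymphocyte and neutrophil markers. Of 9 stellate cell markers, Rgs5 was at 0 in all Mif-2-/-Apoe-/- libraries.

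Most P450 members had a lower level in Mif-2-/-Apoe-/- livers, whereas a few members of the Cyp2a and Cyp3a clusters had a higher level, but none of these differences passed the edgeR test after adjustment. Of the 46 members that passed the filter of the test, 33 had a log2 fold change (log2FC, Mif-2-/-Apoe-/- over Apoe-/-) below 0, or 71.7%, against 43.5% of the 16860 genes tested. Cyp2j8, Cyp2j11 and Cyp2j12, all below 0, passed the filter only through Apoe-/- libraries. Cyp1a1 and Cyp2c65, both above 0, passed it only through Mif-2-/-Apoe-/- libraries. The filter favored the direction of these members, so they give no support to the counts by direction. The median log2FC was -0.58 over the 46 members and 0.17 over all genes tested. Among the 29 members with a mean of at least 20 CPM, 23 were below 0, with a median of -0.60, where the 5840 genes of that level had a median of -0.04. These counts describe the members and are not a test. Because the libraries were made from whole sections, fewer hepatocytes and less P450 RNA per hepatocyte cannot be told apart.

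After adjustment over all genes, edgeR's quasi-likelihood test called 0 of the 46 members, where it called 0.13% of all genes tested, and the lowest adjusted p-value of a member was 0.117. At an unadjusted p-value under 0.05, 12 members were lower in Mif-2-/-Apoe-/- livers, or 26.1% against 6.52% of all genes, and 3 were higher, or 6.52% against 8.99%. The 12 were Cyp2a12, Cyp2c29, Cyp2c40, Cyp2c50, Cyp2c68, Cyp2c69, Cyp2d9, Cyp2d10, Cyp2f2, Cyp2j5, Cyp2j8 and Cyp3a11, and the 3 were Cyp2a22, Cyp3a25 and Cyp3a59. Cyp2j8 passed the filter only through its Apoe-/- libraries and had 0 counts in all Mif-2-/-Apoe-/- libraries, so it gives no support to the count of 12 (11 without it). DESeq2, the other test run, gave an adjusted p-value to 41 members. It called Cyp2d9, Cyp3a11, Cyp2c69 and Cyp2c29 lower, which is 9.76% of the 41 against 2.35% of all genes with an adjusted p-value, and Cyp2a22 and Cyp3a59 higher, which is 4.88% against 2.58%. In CPM the genotypes did not overlap at 2 members, Cyp2a22 and Cyp3a59, both higher in Mif-2-/-Apoe-/- livers (4.35% of the members tested, where 2.03% of all genes were without overlap in that direction). For lower levels, 0 members were without overlap, where 2.24% of all genes were.

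The calls depended on both libraries that stand apart. Without Apoe-/- replicate 5, edgeR called 2 members (Cyp2d9 and Cyp3a11) among 126 of all 16215 genes in that fit, against 22 of 16860 with all libraries. There DESeq2 called 13 members and 11.6% of all genes with an adjusted p-value, and 11 members were lower without overlap, against 6.1% of all genes. Without Mif-2-/-Apoe-/- replicate 2, edgeR called 4 (Cyp2a22, Cyp2c69, Cyp2d9 and Cyp3a11) among 262 of all 16335 genes. DESeq2 then called 16 members and 10% of all genes with an adjusted p-value, and 7 members were lower without overlap, against 5.53% of all genes. Of the other single libraries, leaving out Mif-2-/-Apoe-/- replicate 3 brought the 12 members lower at an unadjusted p-value to 7 (857 of all 16087 genes), and leaving out Mif-2-/-Apoe-/- replicate 1 brought the 3 higher members to 1 (1255 of all 16256 genes). Leaving out Apoe-/- replicate 4 or Mif-2-/-Apoe-/- replicate 1, 3 or 4 brought the 6 DESeq2 calls to 3, 2, 3 and 2, where 2.98%, 3.55%, 2.63% and 2.89% of all genes with an adjusted p-value were called. Cyp2a22 and Cyp2d9 were called by DESeq2 in each of the 9 fits that left out 1 library, and Cyp3a59 in 7.

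**Figure D1:**
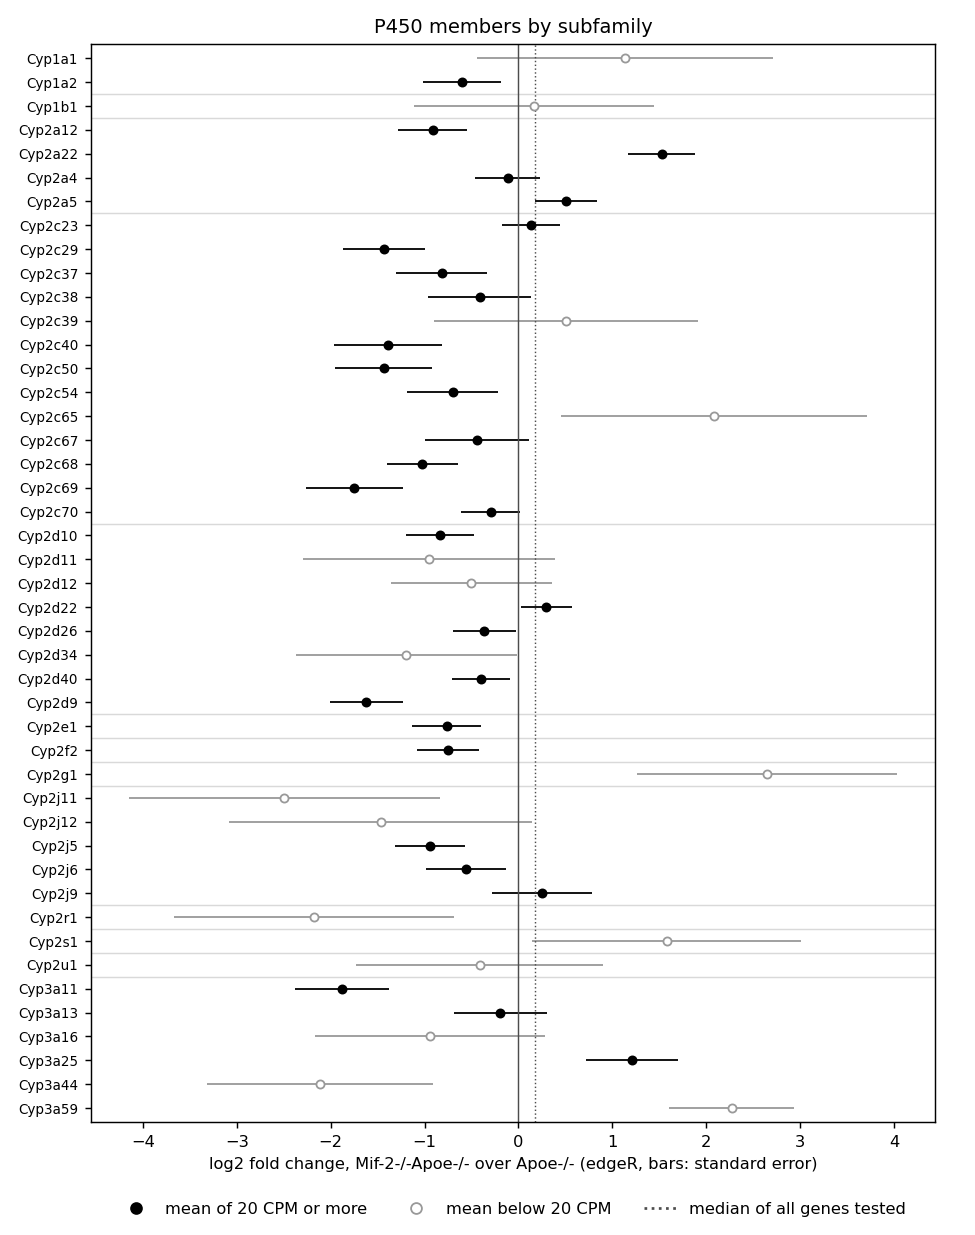
Log2 fold change (Mif-2-/-Apoe-/- over Apoe-/-, horizontal axis) with its standard error as bars for 45 of the 46 members tested, by subfamily; Cyp2j8, with 0 counts in all Mif-2-/-Apoe-/- libraries, is left out. Filled points mark members with a mean of 20 CPM or more. The filled points lie mostly left of 0 and of the dotted median of all genes (0.17), while Cyp2a22 (1.53), Cyp3a25 (1.21) and Cyp3a59 (2.27) lie to the right.

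The 5 promoters below belong to the Cyp2a and Cyp3a members at an unadjusted edgeR p-value under 0.05, whose log2FC values had opposite directions within each cluster. After adjustment edgeR called none of these members, and DESeq2 called Cyp2a22, Cyp3a11 and Cyp3a59 but not Cyp2a12 or Cyp3a25. The promoters are shown so that these neighbors can be compared. Each runs 5′ to 3′ from 250 bases before to 50 bases after the transcription start in RefSeq (GRCm38.p6, the build of the submitters' mm10 genome), and capitals mark matches to AGGTCA, the hexamer bound by many nuclear receptors, or to its complement TGACCT.
Cyp3a59, chr5:146079008-146079307, plus strand: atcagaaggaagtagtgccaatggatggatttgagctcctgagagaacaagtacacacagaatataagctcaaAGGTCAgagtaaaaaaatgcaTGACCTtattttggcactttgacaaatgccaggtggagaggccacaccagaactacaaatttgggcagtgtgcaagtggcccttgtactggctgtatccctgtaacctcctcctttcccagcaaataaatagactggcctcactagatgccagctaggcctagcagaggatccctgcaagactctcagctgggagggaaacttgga
Cyp3a25, chr5:146009568-146009867, minus strand: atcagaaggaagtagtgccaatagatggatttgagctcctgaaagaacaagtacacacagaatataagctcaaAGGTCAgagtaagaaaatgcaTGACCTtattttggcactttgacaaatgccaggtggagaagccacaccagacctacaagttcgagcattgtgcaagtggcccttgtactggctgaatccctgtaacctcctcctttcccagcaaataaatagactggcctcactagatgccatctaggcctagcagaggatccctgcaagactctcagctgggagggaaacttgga
Cyp3a11, chr5:145879805-145880104, minus strand: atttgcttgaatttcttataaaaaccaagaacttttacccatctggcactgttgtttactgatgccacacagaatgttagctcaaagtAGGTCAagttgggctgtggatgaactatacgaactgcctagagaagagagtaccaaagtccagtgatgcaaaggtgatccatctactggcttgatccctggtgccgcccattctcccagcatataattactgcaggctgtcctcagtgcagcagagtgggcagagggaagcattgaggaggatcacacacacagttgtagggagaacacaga
Cyp2a22, chr7:26939337-26939636, minus strand: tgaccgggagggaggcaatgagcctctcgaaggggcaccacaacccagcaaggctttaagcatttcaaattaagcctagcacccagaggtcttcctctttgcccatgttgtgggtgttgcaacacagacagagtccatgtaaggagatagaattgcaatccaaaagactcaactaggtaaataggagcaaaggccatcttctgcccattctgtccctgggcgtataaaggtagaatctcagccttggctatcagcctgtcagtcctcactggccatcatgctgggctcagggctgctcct
Cyp2a12, chr7:27028840-27029139, plus strand: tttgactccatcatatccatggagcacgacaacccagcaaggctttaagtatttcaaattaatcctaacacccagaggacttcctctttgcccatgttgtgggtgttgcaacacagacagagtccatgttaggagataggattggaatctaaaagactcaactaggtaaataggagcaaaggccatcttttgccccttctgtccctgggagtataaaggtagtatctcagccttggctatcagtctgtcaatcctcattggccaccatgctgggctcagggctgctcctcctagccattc

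The promoters of Cyp3a59 and Cyp3a25 were identical at 289 of 300 bases and each held a pair of these hexamers in opposite orientation. Another Cyp3a gene, Cyp3a57, held the same pair, but it had at most 6 counts in any library and was not tested. Cyp3a11 held 1 such hexamer and matched Cyp3a59 at 193 of 251 aligned bases. The promoters of Cyp2a22 and Cyp2a12 matched at 261 of 284 aligned bases, and neither held AGGTCA on either strand. Thus Cyp3a59 and Cyp3a25, with levels in the same direction, and Cyp2a22 and Cyp2a12, with levels in opposite directions, were both pairs of similar promoters.

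RefSeq promoters were found for 42 of the 49 members (44 promoters), and the letters of 5 motifs were searched on both strands. AGGTCA was present in 14 of the 44, or 31.8%, against 16.3% of 32851 promoters of the same length, and 2 or more matches were present in 9.09% against 1.81%. The latter were the promoters of Cyp3a57 and Cyp3a59 and 2 overlapping promoters of Cyp3a25, so Cyp3a25 was counted more than once in both shares. Besides the Cyp3a genes, the members with a match included Cyp2a4, Cyp2c29, Cyp2f2 and Cyp2j5. GCGTG, the core of the AHR site, was in 6 member promoters, 13.6% against 32.4%, among them that of Cyp1a1, a classical AHR target. TTCNNNGAA, the STAT5 site, was in 2, 4.55% against 8.3%, and the D-box TTATGTAA and the C/EBP palindrome TTGCGCAA were in 0, against 0.938% and 0.183%. Paralogs share promoter sequence, so the members are not independent in these shares, and a match is not a binding site.

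Levels between genes were compared per kb of exon, with all annotated exons of a gene joined. In Apoe-/- livers the most abundant member per length was Cyp2d10, at 1959 ± 608 CPM per kb (SD, n = 5), followed by Cyp2d26 at 1617 ± 440, which lay within its spread. Cyp2e1, which oxidizes ethanol and acetaminophen, was at 650.5 ± 201 CPM per kb, and the next members were Cyp2a4 at 372 ± 106 and Cyp2a12 at 345 ± 101, which also lay within each other's spread. In Mif-2-/-Apoe-/- livers Cyp2d26 came first at 1258 ± 370 and Cyp2d10 second at 1095 ± 419 CPM per kb (SD, n = 4), again within their spread. There the level per length of Cyp2a22 was 318 ± 122, beside 344 ± 147 for Cyp2a4 and 183 ± 80.1 for Cyp2a12, whereas in Apoe-/- livers Cyp2a22 was at 110 ± 36.1 CPM per kb. The joined exons of Cyp2a22 and Cyp2a12 were 3445 and 3457 bases, against 1796 and 1681 for their longest coding transcripts. For Cyp2a4 both lengths were 1738 bases, so the order of these Cyp2a genes depends on the length used. Cyp2d26 was named after its level was seen. At the low end, 20 members were below 20 CPM on average.

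The Cyp2a genes lie together on chromosome 7 and metabolize coumarin, nicotine and steroids. As a sum over 4 genes their level was 2658 ± 629 CPM over the 5 Apoe-/- libraries and 2952 ± 537 CPM over the 4 Mif-2-/-Apoe-/- libraries (mean ± SD), so the differences within the subfamily were not visible in its total. Cyp2a22 (chr7:26931631-26939384, minus strand, GENCODE M21) was at 477, 475, 211, 284 and 455 CPM in Apoe-/- replicates 1 to 5 and at 1375, 599, 904 and 1510 CPM in Mif-2-/-Apoe-/- replicates 1 to 4. All Mif-2-/-Apoe-/- libraries lay above all Apoe-/- libraries. The log2FC was 1.53 (standard error 0.36, edgeR adjusted p = 0.117, DESeq2 adjusted p = 0.0013).

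Cyp2a12 (chr7:27029081-27037375, plus strand), a steroid hydroxylase named by the study, went the opposite way. It was at 1375, 1427, 1133, 1418 and 608 CPM in Apoe-/- and at 609, 1007, 339 and 577 CPM in Mif-2-/-Apoe-/- livers, with a log2FC of -0.91 (standard error 0.37, edgeR adjusted p = 0.258, DESeq2 adjusted p = 0.126). The overlap came from Apoe-/- replicate 5, which was below the other 4 Apoe-/- libraries. The study described Cyp2a12, Cyp2a4 and Cyp2d9 as strongly downregulated in livers without MIF-2. Its description drew on liver sections and on whole liver lysates, and the lysates were not used here. Cyp2a4, a female-predominant steroid 15-alpha-hydroxylase, was at 670, 654, 675, 875 and 360 CPM in Apoe-/- and at 555, 955, 528 and 352 CPM in Mif-2-/-Apoe-/- livers. The genotypes overlapped over almost their whole range, and the log2FC of -0.12 (standard error 0.35, edgeR adjusted p = 0.910) turned to 0.07 without Mif-2-/-Apoe-/- replicate 4 and to 0.15 with the share of the 10 most abundant genes as a covariate. Cyp2a4 shares 11.2% of the 100-base windows of its coding transcript with other genes, mostly Cyp2a5, so the counts of this pair are uncertain. For Cyp2a12 and Cyp2a22 the share was 6.83% and 6.36%.

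Because both genes of a ratio come from the same library, ratios within a library do not depend on the scaling. The pairs were chosen after their values were seen, and the ratios are a description. The ratio of Cyp2a22 to Cyp2a12 counts was 0.347, 0.333, 0.187, 0.2 and 0.748 in Apoe-/- replicates 1 to 5, and 2.26, 0.595, 2.67 and 2.62 in Mif-2-/-Apoe-/- replicates 1 to 4. In 3 of the 4 Mif-2-/-Apoe-/- libraries Cyp2a22 had more counts than Cyp2a12, and in none of the 5 Apoe-/- libraries did it. The ranges overlapped at Apoe-/- replicate 5 and Mif-2-/-Apoe-/- replicate 2, the libraries that stood apart in the hepatocyte markers.

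**Figure D2:**
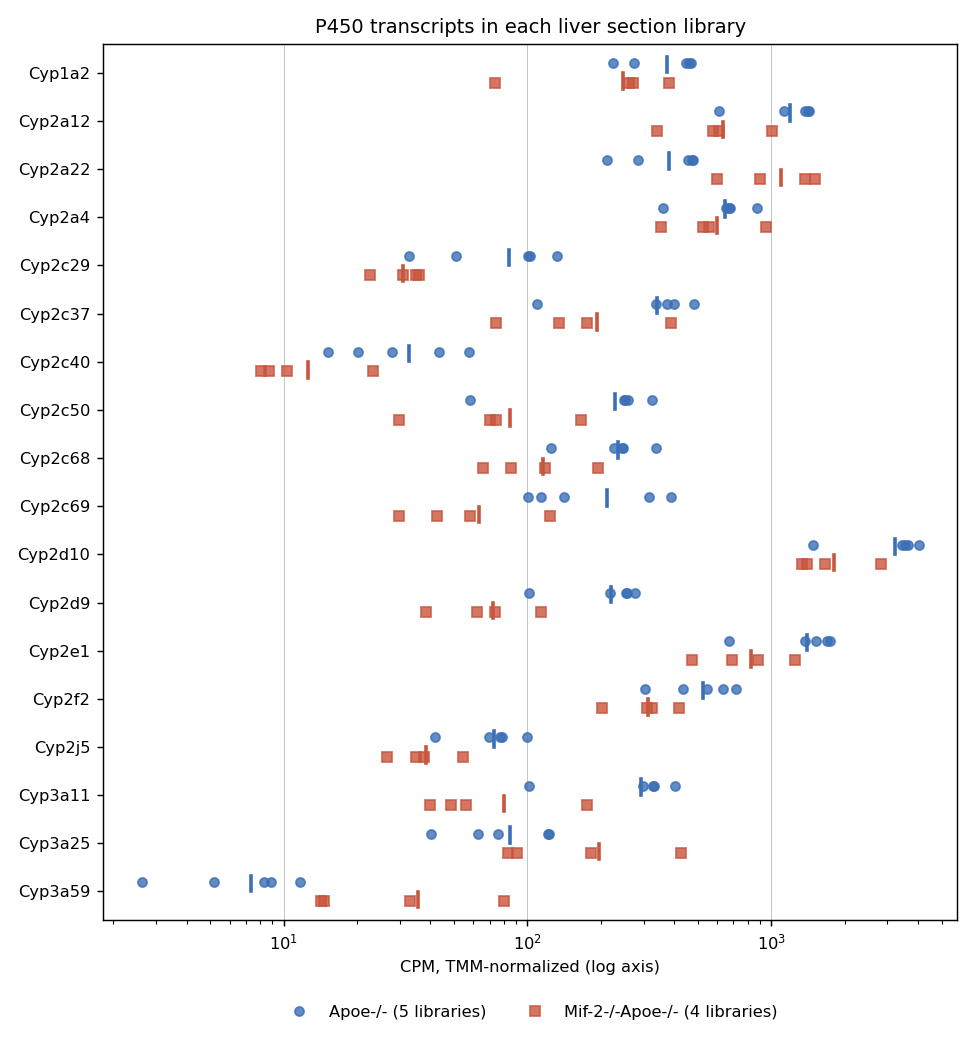
CPM on a log axis of 18 members in each library (circles, Apoe-/-; squares, Mif-2-/-Apoe-/-), with vertical bars at the group means. Only Cyp2a22 and Cyp3a59 show squares that all lie to the right of the circles. The other 16 overlap between the groups, and most of them are shown because of their p-value. Without Apoe-/- replicate 5, 11 of all members tested were lower without overlap, against 6.1% of all genes. Without Mif-2-/-Apoe-/- replicate 2, 7 were, against 5.53% of all genes.

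The Cyp3a genes lie on chromosome 5 and hydroxylate steroids and a wide range of drugs. All members but Cyp3a13 (chr5:137892932-137921619) form a cluster there. The summed level of all Cyp3a members, with Cyp3a13, was 426 ± 124 CPM over the 5 Apoe-/- libraries and 342 ± 181 CPM over the 4 Mif-2-/-Apoe-/- libraries (mean ± SD). Cyp3a11 (chr5:145854426-145879964, minus strand), the classical target of PXR in mouse liver, was at 297, 332, 329, 402 and 101 CPM in Apoe-/- and at 55.9, 175, 48.4 and 40.0 CPM in Mif-2-/-Apoe-/- livers. Its log2FC was -1.88 (standard error 0.50, edgeR adjusted p = 0.141, DESeq2 adjusted p = 0.0168). The groups overlapped only through Apoe-/- replicate 5 and Mif-2-/-Apoe-/- replicate 2. Without the latter the log2FC was -2.70 (edgeR adjusted p = 0.0219). Over the fits lacking 1 library, edgeR called it in 2 of 9 fits and DESeq2 in 3, so the DESeq2 call was lost in 6 of them.

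Cyp3a25 (chr5:145977194-146009618, minus strand), the Cyp3a gene with the highest level per kb of joined exons over the 9 libraries, was at 121, 123, 40.4, 62.7 and 75.5 CPM in Apoe-/- and at 428, 83.5, 90.5 and 182 CPM in Mif-2-/-Apoe-/- livers. By that measure Cyp3a11 was the higher in Apoe-/- livers (57.4 against 40.6 CPM per kb). The joined exons of Cyp3a11 were 5093 bases, against 2344 for its longest coding transcript, so this rank depends on the length used. Of the Mif-2-/-Apoe-/- libraries, replicates 1 and 4 were above all Apoe-/- libraries in Cyp3a25 and replicates 2 and 3 were not. Its log2FC was 1.21 (standard error 0.49, edgeR adjusted p = 0.261, DESeq2 adjusted p = 0.145) and was 0.49 without Mif-2-/-Apoe-/- replicate 1. Cyp3a59 (chr5:146079257-146113287, plus strand), its neighbor, was far less abundant. It was at 11.7, 8.31, 5.16, 2.62 and 8.91 CPM in Apoe-/- and at 80.5, 14.2, 14.6 and 32.9 CPM in Mif-2-/-Apoe-/- livers, which did not overlap.

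The log2FC of Cyp3a59 was 2.27 (standard error 0.66, edgeR adjusted p = 0.160, DESeq2 adjusted p = 0.0165) and was 1.49 without Mif-2-/-Apoe-/- replicate 1. It rested on 11 to 85 counts per Apoe-/- library and 25 to 396 counts per Mif-2-/-Apoe-/- library. Cyp3a59 and Cyp3a25 share 5.6% and 6.05% of their 100-base transcript windows with each other, so a part of the Cyp3a59 counts may be reads of its more abundant neighbor. The ratio of Cyp3a59 to Cyp3a25 counts was between 0.0418 and 0.128 in Apoe-/- and between 0.162 and 0.188 in Mif-2-/-Apoe-/- livers, and these ranges did not overlap.

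Within the libraries the ratio of Cyp3a25 to Cyp3a11 counts was 0.408, 0.37, 0.123, 0.156 and 0.747 in Apoe-/- and 7.65, 0.477, 1.87 and 4.54 in Mif-2-/-Apoe-/- livers. Cyp3a25 thus had more counts than Cyp3a11 in 3 Mif-2-/-Apoe-/- libraries and in 0 Apoe-/- libraries. Mif-2-/-Apoe-/- replicate 2 again lay inside the Apoe-/- range. Of the other Cyp3a members tested, Cyp3a13, Cyp3a16 and Cyp3a44, each had a log2FC below 0 and none a p-value under 0.05; Cyp3a44 and Cyp3a16 were below 20 CPM.

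**Figure D3:**
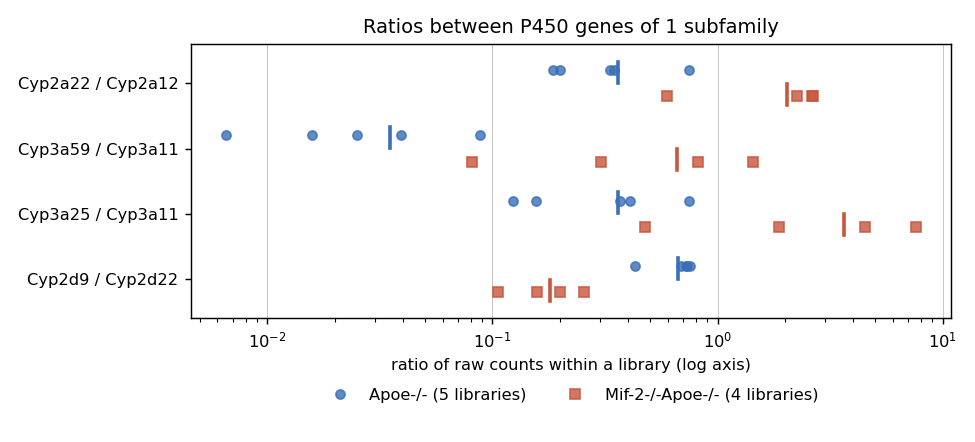
Ratio of the raw counts of 2 genes within each library on a log axis (circles, Apoe-/-; squares, Mif-2-/-Apoe-/-), with bars at the group means. The Cyp2a22 to Cyp2a12 and Cyp3a25 to Cyp3a11 ratios were above 1 in 3 of 4 Mif-2-/-Apoe-/- libraries and below 1 in all Apoe-/- libraries, and the Cyp2d9 to Cyp2d22 ratios did not overlap.

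The Cyp2c genes, which epoxidize arachidonic acid and metabolize many drugs, form the largest group and lie on chromosome 19. Of 13 tested, 10 had a log2FC below 0 and 5 were lower at an unadjusted p-value under 0.05, with a median over the 13 of -0.70. Their summed level was 1752 ± 624 CPM over the 5 Apoe-/- libraries and 1045 ± 419 CPM over the 4 Mif-2-/-Apoe-/- libraries (mean ± SD). The 3 with a log2FC above 0 were Cyp2c23, Cyp2c39 and Cyp2c65, none of them at a p-value under 0.05. Cyp2c65 passed the filter only through its Mif-2-/-Apoe-/- libraries. Cyp2c55 and Cyp2c66 were not tested and had counts in 3 libraries each.

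Cyp2c29 (chr19:39269405-39330713, plus strand), a CAR-responsive gene that shares no 100-base window with another gene, was at 50.8, 102, 100, 132 and 32.7 CPM in Apoe-/- and at 22.6, 35.8, 30.7 and 35.0 CPM in Mif-2-/-Apoe-/- livers. All Mif-2-/-Apoe-/- libraries lay below the other 4 Apoe-/- libraries, and 2 of them lay above Apoe-/- replicate 5. The log2FC was -1.43 (standard error 0.43, edgeR adjusted p = 0.170, DESeq2 adjusted p = 0.0401), and DESeq2 called it in 3 of the 9 fits without a library.

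Cyp2c69 (chr19:39842814-39886799, minus strand), a female-predominant gene, was at 101, 114, 316, 387 and 141 CPM in Apoe-/- and at 58.2, 123, 29.7 and 42.5 CPM in Mif-2-/-Apoe-/- livers. The Apoe-/- libraries themselves spread widely, with a coefficient of variation of 61.7%. Its log2FC was -1.75 (standard error 0.51, edgeR adjusted p = 0.162, DESeq2 adjusted p = 0.0360), and the groups overlapped only through Mif-2-/-Apoe-/- replicate 2, without which the log2FC was -2.38 (edgeR adjusted p = 0.0426). Cyp2c40, also female-predominant, was at 15.2, 27.8, 43.2, 57.9 and 20.1 CPM in Apoe-/- and at 10.4, 23.3, 8.06 and 8.69 CPM in Mif-2-/-Apoe-/- livers (log2FC -1.39, edgeR adjusted p = 0.271). Since Cyp2c69 and Cyp2c40 share 36.3% and 44.1% of their transcript windows, mostly with each other, their counts are uncertain.

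Of the other Cyp2c members at an unadjusted p-value under 0.05, Cyp2c50 was at 252, 260, 248, 325 and 57.9 CPM in Apoe-/- and at 74.2, 165, 29.7 and 70.2 CPM in Mif-2-/-Apoe-/- livers. Its log2FC was -1.44 (edgeR adjusted p = 0.213), and it was -2.08 without Mif-2-/-Apoe-/- replicate 2 (edgeR adjusted p = 0.0662, DESeq2 adjusted p = 0.0029). Apoe-/- replicate 5 was far below the other Apoe-/- libraries and within the Mif-2-/-Apoe-/- range. Cyp2c68 was at 227, 247, 244, 336 and 124 CPM in Apoe-/- and at 86.0, 195, 65.5 and 118 CPM in Mif-2-/-Apoe-/- livers, a log2FC of -1.02 (edgeR adjusted p = 0.225). It shares 19.8% of its windows, mostly with Cyp2c40.

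Cyp2c37, the Cyp2c gene of highest level per length, was at 373, 400, 336, 480 and 110 CPM in Apoe-/- and at 175, 388, 74.3 and 134 CPM in Mif-2-/-Apoe-/- livers. Its log2FC was -0.82 (standard error 0.48, edgeR adjusted p = 0.432). Mif-2-/-Apoe-/- replicate 2 lay among the Apoe-/- libraries and Apoe-/- replicate 5 among the Mif-2-/-Apoe-/- libraries. Without Mif-2-/-Apoe-/- replicate 2 the log2FC of Cyp2c37 was -1.52 (edgeR adjusted p = 0.111, DESeq2 adjusted p = 0.0221).

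The Cyp2d genes on chromosome 15, relatives of the human debrisoquine hydroxylase, held the largest share of the P450 counts. Their sum was 6876 ± 1907 CPM over the 5 Apoe-/- libraries and 4681 ± 1088 CPM over the 4 Mif-2-/-Apoe-/- libraries (mean ± SD), and 7 of 8 had a log2FC below 0. Cyp2d9 (chr15:82433437-82456845, plus strand), a male-predominant testosterone 16-alpha-hydroxylase that the study named, was at 256, 275, 219, 255 and 102 CPM in Apoe-/- and at 73.8, 114, 38.6 and 62.4 CPM in Mif-2-/-Apoe-/- livers. Only Mif-2-/-Apoe-/- replicate 2 exceeded the lowest Apoe-/- library, replicate 5. The log2FC was -1.62 (standard error 0.39, edgeR adjusted p = 0.128, DESeq2 adjusted p = 0.0030).

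The ratio of Cyp2d9 to Cyp2d22 counts, chosen after the values were seen, was between 0.428 and 0.753 in Apoe-/- and between 0.106 and 0.255 in Mif-2-/-Apoe-/- livers and did not overlap. Cyp2d22 was the one Cyp2d gene with a log2FC above 0, at 0.30 (standard error 0.27, edgeR adjusted p = 0.639). Cyp2d9 shares 9.86% of its windows with other genes, mainly Cyp2d10 and Cyp2d12. Cyp2d10 was at 3545, 4026, 3449, 3641 and 1478 CPM in Apoe-/- and at 1333, 2819, 1409 and 1661 CPM in Mif-2-/-Apoe-/- livers, with a log2FC of -0.84 (standard error 0.36, edgeR adjusted p = 0.288). Without Apoe-/- replicate 5 its groups did not overlap.

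Cyp2e1 was at 1532, 1692, 1379, 1746 and 669 CPM in Apoe-/- and at 883, 1255, 474 and 691 CPM in Mif-2-/-Apoe-/- livers (log2FC -0.77, standard error 0.36, edgeR adjusted p = 0.330). Cyp2f2, which bioactivates naphthalene and is periportal in the lobule, was at 433, 547, 636, 714 and 304 CPM in Apoe-/- and at 417, 326, 202 and 308 CPM in Mif-2-/-Apoe-/- livers (log2FC -0.75, standard error 0.33, edgeR adjusted p = 0.295). The periportal Cyp2f2 and the pericentral Cyp2e1 thus had log2FC values of similar size, a comparison of 1 gene each. The marker lists outside the P450 families, given below, had a median log2FC of 0.10 (periportal) and -0.49 (pericentral). Cyp1a2, a pericentral enzyme of caffeine metabolism, was at 470, 446, 462, 273 and 225 CPM in Apoe-/- and at 262, 383, 73.3 and 270 CPM in Mif-2-/-Apoe-/- livers (log2FC -0.60, standard error 0.42, edgeR adjusted p = 0.515). In each of these 3 genes the groups overlapped.

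Of the 6 Cyp2j genes on chromosome 4, which epoxidize arachidonic acid, 5 had a log2FC below 0. Among them Cyp2j8, Cyp2j11 and Cyp2j12 passed the filter only through their Apoe-/- libraries, so their direction gives no support to that count. Cyp2j5, the most abundant per length, was at 69.3, 78.7, 77.5, 99.2 and 41.6 CPM in Apoe-/- and at 37.6, 54.5, 34.8 and 26.5 CPM in Mif-2-/-Apoe-/- livers (log2FC -0.94, standard error 0.37, edgeR adjusted p = 0.257). Cyp2j8 had 4, 9, 1, 0 and 12 counts in Apoe-/- and 0 counts in each Mif-2-/-Apoe-/- library. Its Apoe-/- mean of 0.910 CPM was below the 0.939 CPM that 3 counts per Mif-2-/-Apoe-/- library would give, so a difference was not detectable at this depth (edgeR adjusted p = 0.214). The other 27 tested members outside the rule for named genes had log2FC values from -2.49 to 2.65, 17 below and 10 above 0, and 0 had an unadjusted p-value under 0.05. Among them Cyp1a1, Cyp2c65, Cyp2j11 and Cyp2j12 passed the filter only through the genotype in which they were higher.

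Over all members, the summed level was 15362, 16417, 14312, 17089 and 7719 CPM in Apoe-/- replicates 1 to 5 and 11491, 13013, 7081 and 10574 CPM in Mif-2-/-Apoe-/- replicates 1 to 4. Apoe-/- replicate 5 was the lowest Apoe-/- library at 21 of the 29 members averaging 20 CPM or more, and Mif-2-/-Apoe-/- replicate 3 was the lowest of the 9 at 15. The pericentral markers outside the P450 families summed to between 1617 and 4147 CPM in Apoe-/- and to between 1202 and 2083 CPM in Mif-2-/-Apoe-/- livers. Of these 12 genes 9 had a log2FC below 0, with a median of -0.49, and DESeq2 called Oat and Aldh1a1 lower. The periportal markers summed to between 2969 and 6087 CPM in Apoe-/- and to between 5858 and 8174 CPM in Mif-2-/-Apoe-/- livers, with a median log2FC of 0.10, and DESeq2 called Sds and Pck1 higher. The edgeR test called 0 genes of either list after adjustment. At an unadjusted p-value under 0.05 it found 4 pericentral genes lower and 0 higher, and 1 periportal gene lower and 2 higher. Within the Apoe-/- group, the sum of the 15 hepatocyte markers and the P450 sum were both lowest in replicate 5. Within the Mif-2-/-Apoe-/- group both were highest in replicate 2, whereas the pericentral and periportal sums were highest in replicate 1. The part of the hepatocyte markers in the P450 levels was not tested. The 12 Kupffer cell markers summed to between 1415 and 3334 CPM in Apoe-/- and to between 1681 and 2311 CPM in Mif-2-/-Apoe-/- livers, the 9 sinusoidal endothelial markers to between 501 and 736 CPM and between 233 and 923 CPM, the 9 stellate cell markers to between 534 and 1106 CPM and between 666 and 934 CPM, the 7 cholangiocyte markers to between 103 and 325 CPM and between 68.1 and 311 CPM, and the 10 lymphocyte and neutrophil markers to between 34.5 and 42.7 CPM and between 27.9 and 77.6 CPM.

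**Figure D4:**
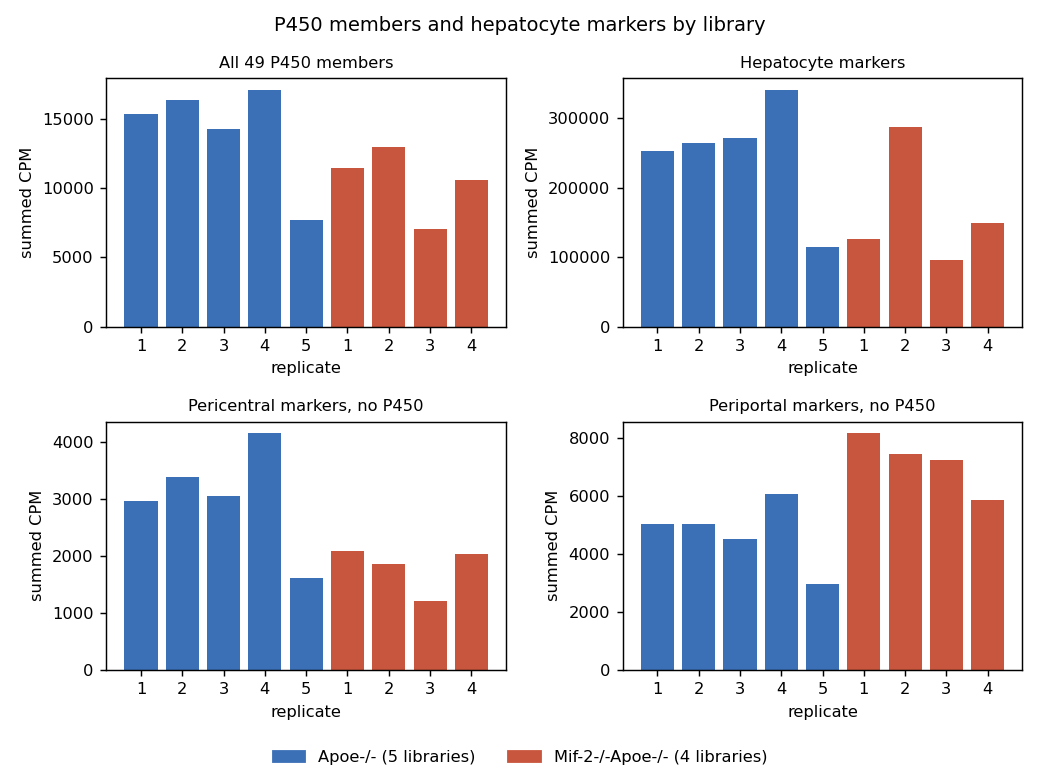
Summed CPM (axes from 0) in each library of the 49 P450 members, of 15 hepatocyte markers, and of 12 pericentral and 12 periportal hepatocyte markers outside the P450 families. Apoe-/- replicate 5 is the lowest Apoe-/- library in all 4 panels, and the P450 sum of Mif-2-/-Apoe-/- replicate 2 (13013 CPM) is the highest of its genotype, as is its hepatocyte marker sum (287552 CPM).

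Among 29 known regulators of P450 transcription, 28 were tested, 19 with a log2FC above 0 and 9 below. The edgeR test called 2 higher and 0 lower, both of them circadian factors of the PAR bZIP family that bind D-box elements. Dbp was at 6.45, 8.98, 12.7, 0.806 and 12.4 CPM in Apoe-/- and at 425, 179, 432 and 359 CPM in Mif-2-/-Apoe-/- livers (log2FC 5.42, standard error 0.59, edgeR adjusted p = 0.00089). Tef was at 78.8 ± 45.6 CPM over 5 Apoe-/- and 599 ± 141 CPM over 4 Mif-2-/-Apoe-/- libraries (mean ± SD), a log2FC of 2.92 (standard error 0.43, edgeR adjusted p = 0.0123). The exact TTATGTAA motif was in none of the 44 member promoters, as given above. With a share of 0.938% over all promoters, a match among 44 was unlikely from the outset. The search therefore cannot tell whether Dbp or Tef acts on the members, which was not tested. The time of day at which livers were collected is not given in the sources used here.

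The receptor CAR (Nr1i3) was at 314, 388, 231, 382 and 578 CPM in Apoe-/- and at 1881, 354, 1162 and 1465 CPM in Mif-2-/-Apoe-/- livers. Its log2FC was 1.68 (standard error 0.42, edgeR adjusted p = 0.136, DESeq2 adjusted p = 0.0084), and Mif-2-/-Apoe-/- replicate 2 alone lay inside the Apoe-/- range. PXR (Nr1i2) was at 85.2 ± 29.2 CPM over 5 Apoe-/- and 122 ± 60.8 CPM over 4 Mif-2-/-Apoe-/- libraries (mean ± SD), with a log2FC of 0.52 (standard error 0.40, edgeR adjusted p = 0.565). Ahr had a log2FC of 0.39 (standard error 0.59, edgeR adjusted p = 0.798). At an unadjusted p-value under 0.05, edgeR found 4 of the 28 higher and 2 lower, and DESeq2 called 3 higher and 0 lower after adjustment.

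The 17 genes of electron donation and heme supply were all tested. The edgeR test called 0 after adjustment, and at an unadjusted p-value under 0.05 it found 2 higher and 6 lower. Alas1, the rate-limiting enzyme of heme synthesis, was at 318, 312, 216, 294 and 120 CPM in Apoe-/- and at 760, 1085, 976 and 491 CPM in Mif-2-/-Apoe-/- livers, without overlap (log2FC 1.71, standard error 0.35, edgeR adjusted p = 0.0897, DESeq2 adjusted p = 0.00025). Por was at 538, 645, 409, 445 and 216 CPM in Apoe-/- and at 871, 1016, 768 and 693 CPM in Mif-2-/-Apoe-/- livers, also without overlap (log2FC 0.89, standard error 0.32, edgeR adjusted p = 0.218, DESeq2 adjusted p = 0.0530). Most members that receive heme and electrons from these products had fold changes in the opposite direction.

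Hmox1, which degrades heme, and Blvrb, which acts on the bilins made from it, were lower by DESeq2. Hmox1 was at 80.9 ± 48.8 CPM over the 5 Apoe-/- libraries and 15.8 ± 7.76 CPM over the 4 Mif-2-/-Apoe-/- libraries (mean ± SD) (log2FC -2.37, standard error 0.54, edgeR adjusted p = 0.106, DESeq2 adjusted p = 0.0012). Blvrb was at 917 ± 328 and 269 ± 140 CPM (log2FC -1.77, standard error 0.41, edgeR adjusted p = 0.106, DESeq2 adjusted p = 0.0031). DESeq2 also called Cyb5b, a cytochrome b5, lower (log2FC -1.08, DESeq2 adjusted p = 0.0173).

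**Figure D5:**
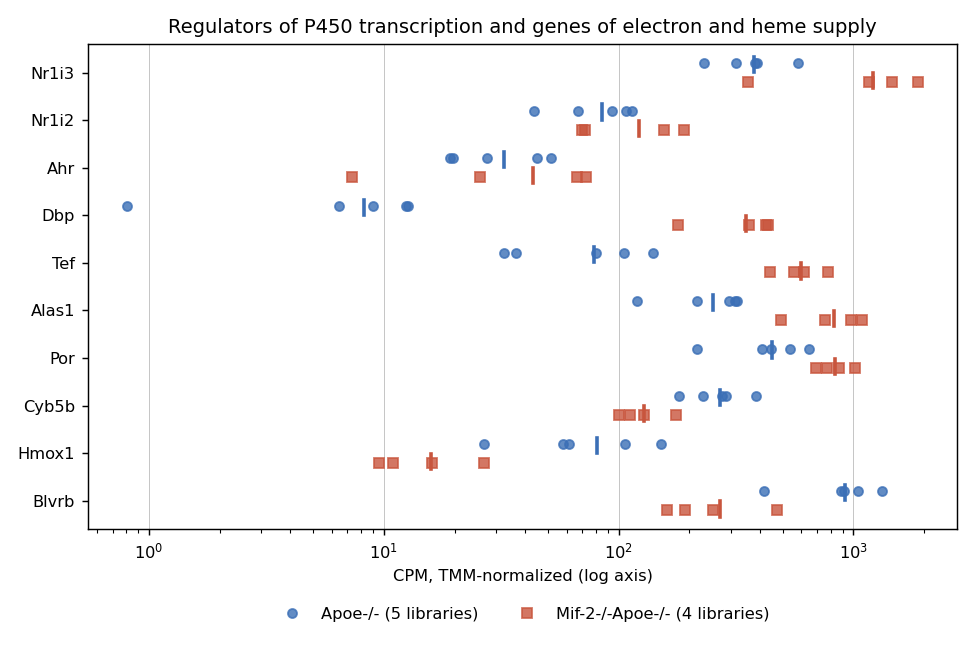
CPM on a log axis of 5 regulators of P450 transcription and 5 genes of electron and heme supply in each library (circles, Apoe-/-; squares, Mif-2-/-Apoe-/-), with bars at the group means. The squares of Dbp, Tef, Alas1 and Por all lie to the right of the circles, while for Nr1i3 1 square, Mif-2-/-Apoe-/- replicate 2 at 354 CPM, lies among the circles.

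Of 10 female-predominant P450 genes, which include members and relatives, edgeR called 2 higher and 0 lower. The 2 were Cyp2b9 and Cyp2b13, which are not members and averaged 723 ± 423 and 402 ± 226 CPM over the 4 Mif-2-/-Apoe-/- libraries, against 4.48 ± 5.10 and 1.54 ± 1.56 CPM over the 5 Apoe-/- libraries (mean ± SD). At an unadjusted p-value under 0.05, 3 of the 10 were lower, namely the members Cyp2c40 and Cyp2c69 and the gene Cyp3a41b, and the list did not move in one direction. Cyp3a41b passed the filter only through its Apoe-/- libraries. Of 5 male-predominant genes 4 were tested, 3 of them with a log2FC below 0, and 1, Cyp2d9, was lower by DESeq2. Of the 5 Cyp2b genes 4 were tested, and edgeR called Cyp2b9 and Cyp2b13. The log2FC of Cyp2b10 was 0.80 and that of Cyp2b23 was -0.37 (edgeR adjusted p = 0.870 and 0.943).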

How the data were processed

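Liver sections of 5 Apoe-/- and 4 Mif-2-/-Apoe-/- libraries were measured by bulk RNA sequencing. According to the submitters' processing notes and the study's methods, the authors used FastQC for read quality, cutadapt for trimming and HISAT2 for alignment to mm10, and deposited raw counts on exons per gene under Entrez identifiers; versions, strand setting and treatment of reads shared by paralogs are not given in the sources used here. The table held 27179 genes, of which 25275 matched a RefSeq symbol, and 1 line without an identifier was left out. Coordinates and exon lengths are from GENCODE M21 (GRCm38).

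The members, gene lists and tests were chosen with earlier results of these data known. A gene entered the test if 3 or more libraries of 1 genotype had a count of 1 or more; the 10 genes of highest mean CPM, none of them a member, were left out, leaving 16860. Differential expression was tested with edgeR 4.0.16 (quasi-likelihood, TMM, Benjamini-Hochberg over all genes tested) under R 4.3.3, without covariates. The threshold was 0.05, and standard errors were taken from the log2 fold change and the F statistic. DESeq2 1.42.0 was run beside it on each gene that had any count. CPM values are TMM-normalized. The biological coefficient of variation was 0.909. A count of 3 was taken as the floor of a library, for counting error only. The test was tested on simulated counts. Members named with values for each library were those past any of the tests or without overlap, the highest per kb of exon in each main subfamily, and Cyp2d9, Cyp2a12 and Cyp2a4, which the study names (19 members). Other alternatives were RLE and TMMwsp factors, other filters, the 10 genes kept, mitochondrial, rRNA, Gm and Rik genes removed, thinned counts, a covariate for the counts taken by the top 10 genes, a replicate block and each library left out. DESeq2 without each library was added after seeing the data. Transcript windows of 100 bases identical between genes were counted in GENCODE M21. Protein sequences were not used here, and 1 result for a listed gene is not reported here. Tables and figures were made with Python 3.11.15, pandas 2.3.3, numpy 2.4.6 and matplotlib 3.10.9.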

Additional observations from a re-analysis of the deposited data

Results flagged for a closer look

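In 38 groups of libraries (19 named members in both genotypes), 4 had a library far from the others by Dixon's criterion, where chance gives about 1 in 20 groups. Cyp2c50 was at 57.9 CPM in Apoe-/- replicate 5, with the other 4 Apoe-/- libraries between 248 and 325 CPM. Cyp2d10 was at 1478 CPM in the same library, with the others between 3449 and 4026 CPM. Cyp3a11 was at 174.9 CPM in Mif-2-/-Apoe-/- replicate 2, with the other 3 between 40.0 and 55.9 CPM. Cyp2c40 was at 23.28 CPM in the same library, with the others between 8.06 and 10.4 CPM. All 4 values lay within the range of the opposite genotype or between the genotypes, and they came from the libraries that stood apart in the hepatocyte markers. The part of those markers was not tested.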

How the results depend on the processing

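The count of members with an adjusted p-value under 0.05 was 0 by edgeR and 6 by DESeq2, and it was 0 under the other size factors, filters, gene removals, thinning and covariate. With a replicate block it was 4 (Cyp2a22, Cyp2c50, Cyp2d9 and Cyp3a11), where 560 of all 16860 genes were called against 22 without the block, with 5 members higher at an unadjusted p-value. The replicate numbers could not be taken as pairs: the correlation of deviations from the genotype means was 0.124, 0.00819, 0.0613 and -0.012 for the 4 pairs of equal number, and not every library correlated best with its own number. Over the fits that each left out 1 library, edgeR called 0 to 4 members and DESeq2 2 to 16. Members lower at an unadjusted p-value numbered 7 to 16 and members higher 1 to 4, the median log2 fold change ran from -0.87 to -0.52, and members without overlap numbered 0 to 11 lower and 2 to 3 higher. With TMMwsp factors the median of all genes tested was 0.00 instead of 0.17, and that of the members -0.75. The direction of each named member was the same in all fits except Cyp2a4, which ran from -0.53 to 0.07 over the edgeR fits without a library (0.0729 without Mif-2-/-Apoe-/- replicate 4), was 0.15 with the top 10 share as a covariate, and was 0.046 and 0.11 under DESeq2 without Apoe-/- replicate 4 and Mif-2-/-Apoe-/- replicate 4; the cause was not tested. Depth limits the 20 members below 20 CPM, whose fold changes rest on few counts.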
